A study of Mus musculus with 4 samples.

Results

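The 10 genes described here carry out vitamin D activation and mineral handling in the mouse kidney: Cyp27b1, Cyp24a1, Vdr, Kl, Slc34a1, Slc34a3, Trpv5, Calb1, S100g and Pth1r. They were chosen by name, and the choice was made with the differences between the control and MN arrays of this series in view, so those differences are given as a description without a test. Every probe carrying 1 of these names was kept, which gave 13 probes among 55681 on the array, and 10 genes among 34650 gene names. Total RNA of whole kidney was measured on 1-colour arrays, with 2 control and 2 MN samples and 1 sample per array. MN is the labels' abbreviation for the experimental membranous disease of the series, in which immune deposits form along the filtering wall of the glomerulus.

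The mice were female BALB/C, 6 weeks old at the start. Control and MN mice alike had been immunized with 0.2 mg of cationic bovine serum albumin (cBSA) in complete Freund's adjuvant. From 2 weeks later the MN mice received cBSA at 13 mg/kg into a vein, 3 times a week for 6 weeks, and the control mice received vehicle on that schedule, named as saline in one place of the labels and as PBS in another. The controls were thus immunized animals that did not get the intravenous antigen. The labels do not say whether each array held the RNA of 1 mouse or of a pool, nor that replicates came from separate mice, so the spread reported here is that between these samples and may be technical. Replicate 1 of both groups lay on slide 1 and replicate 2 of both groups on slide 2, so each difference is also given within each slide.

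The kidney makes the hormonal form of vitamin D in the proximal tubule and also breaks it down. The 1-alpha-hydroxylase Cyp27b1 makes calcitriol and the 24-hydroxylase Cyp24a1 breaks it down, and calcitriol acts through the nuclear receptor Vdr. Parathyroid hormone, through its receptor Pth1r, induces Cyp27b1 and represses Cyp24a1, whereas FGF23, which signals through FGF receptors with klotho (Kl) as its co-receptor, does the opposite; both hormones lower phosphate uptake by the cotransporters Slc34a1 and Slc34a3. Further along the nephron, calcium enters cells through the channel Trpv5 and is carried across them by the calbindins Calb1 and S100g.

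Levels are log2 of the scanner's processed signal minus the 75th percentile of the same array, so that 0 is the signal below which 75% of its spots lie. A level belongs to its own probe and cannot be set against the level of another probe. All 13 probes were well above background on all 4 arrays, none was saturated, and all 10 genes passed the filter on dim probes. The kidney markers Umod, Slc12a1, Lrp2 and Aqp2 were well above background on every array. Control array 2 had 79.5% of its non-control spots well above background, against 63.1% to 65.9% on the other 3 arrays.

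The regulatory sequence is shown for 3 of these genes: Cyp27b1 and Vdr, which separated the groups, and S100g, which did not, for comparison, since it is known as a target of the receptor and had the most matches to its binding hexamer. RefSeq windows of GRCm38.p6, each the 250 bases before the annotated start, were at hand for 8 of the 10 genes; Cyp24a1 and Calb1 are named only. The receptor binds hexamers, classically as a direct repeat spaced by 3 bases. The hexamer AGGTCA was searched on both strands, and with it the variant spelled AGTTCA, the variant spelled GGGTCA and the variant spelled GGTTCA, 4 in all. In the Cyp27b1 window, chr10:127047996-127048245 on the plus strand, capitals mark a CCAAT box read on the other strand (ATTGG, its first base 86 bases before the start) and a TATATA (37 bases before). In the Vdr window, chr15:97908297-97908546 on the minus strand, and the S100g window, chrX:162964600-162964849 on the minus strand, capitals mark the hexamers.
Cyp27b1: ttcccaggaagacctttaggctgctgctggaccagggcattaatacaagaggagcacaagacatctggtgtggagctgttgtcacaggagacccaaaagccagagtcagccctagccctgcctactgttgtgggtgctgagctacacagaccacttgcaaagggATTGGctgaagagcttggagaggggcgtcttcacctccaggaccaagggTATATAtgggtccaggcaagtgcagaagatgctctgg
Vdr: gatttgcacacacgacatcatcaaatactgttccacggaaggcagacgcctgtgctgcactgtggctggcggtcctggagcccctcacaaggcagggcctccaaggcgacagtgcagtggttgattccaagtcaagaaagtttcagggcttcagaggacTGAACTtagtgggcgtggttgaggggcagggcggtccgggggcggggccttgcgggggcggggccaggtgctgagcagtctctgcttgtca
S100g: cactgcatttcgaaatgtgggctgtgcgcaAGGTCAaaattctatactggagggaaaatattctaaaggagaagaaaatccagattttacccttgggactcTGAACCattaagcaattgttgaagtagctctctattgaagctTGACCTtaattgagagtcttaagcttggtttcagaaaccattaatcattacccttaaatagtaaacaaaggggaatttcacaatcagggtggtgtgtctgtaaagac
The Cyp27b1 window held none of the 4 hexamers. Vdr had 1, starting 91 bases before the start, and S100g had 3, starting 220, 149 and 107 bases before it. Over all 10 windows of the 8 genes, 5 genes had at least 1 hexamer (Kl, Slc34a1, Slc34a3, S100g and Vdr) and 0 windows had the spaced direct repeat. Among 32841 windows of the same length, 38.6% held at least 1 hexamer, 9.75% held 2 or more and 0.0396% held the repeat, while CCAAT occurred in 33.9% and TATATA in 5.25% on either strand. These are matches of letters, not measured binding.

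Cyp27b1, the enzyme that makes calcitriol, was lower in the MN kidneys by more than any of the other 9 genes. Its level was 0.55 and 0.33 in the control arrays and -0.73 and -0.72 in the MN arrays (probe on mm9 chromosome 10, 126489922 to 126489981). Both MN values lay below both control values, with a gap between the groups far wider than the spread within either. The difference was -1.17 ± 0.15 (MN minus control on the log2 scale, standard error of the limma fit over all genes, n = 2 arrays a group), a level 2.24-fold lower in MN. Within slide 1 it was -1.28 and within slide 2 it was -1.05. Before scaling between arrays the processed signal was 1081 and 1029 in control and 462 and 732 in MN, where the higher MN value came from the brightest array, whose 75th percentile was 1204 against 737 to 818 on the other 3. Of all genes tested, 98.3% had a smaller absolute difference than Cyp27b1.

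Cyp24a1, the enzyme that inactivates calcitriol, differed in the other direction and by less. Its level was 2.37 and 2.12 in control and 2.75 and 2.55 in MN (mm9 chromosome 2, 170308865 to 170308924), so the groups did not overlap. The difference was 0.41 ± 0.17 (SE, n = 2), or 1.33-fold higher in MN, and it was 0.39 on slide 1 and 0.43 on slide 2. Array 2 read lower than array 1 by about the same amount in both groups, -0.25 in control and -0.20 in MN, so the arrays of a slide kept their distance.

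The balance of the 2 hydroxylases is a ratio within each array and does not depend on how arrays were scaled to one another. It was formed after the values had been seen. Relative to the control mean, the log2 ratio of Cyp24a1 to Cyp27b1 was 0.01 and -0.01 in the control arrays and 1.68 and 1.47 in the MN arrays. The ratio in MN was thus 2.98-fold that in control, by 1.67 on the log2 scale on slide 1 and 1.48 on slide 2. The control arrays were nearly level with each other in this ratio although each gene alone differed between them by more than 0.2. The MN arrays were not, as their ratios of 1.68 and 1.47 lay further apart than their Cyp27b1 levels, which differed by 0.01.

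Vdr, the calcitriol receptor, was lower in both MN arrays than in both control arrays. Its level was 4.27 and 4.54 in control and 3.86 and 4.16 in MN (mm9 chromosome 15, 97685136 to 97685195). The difference was -0.40 ± 0.19 (SE, n = 2), or 1.32-fold lower, and was nearly the same on the 2 slides, at -0.41 and -0.39. Slide 2 read higher than slide 1 by 0.27 in control and 0.29 in MN, so the gap between slides was somewhat smaller than that between groups.

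**Figure D1:**
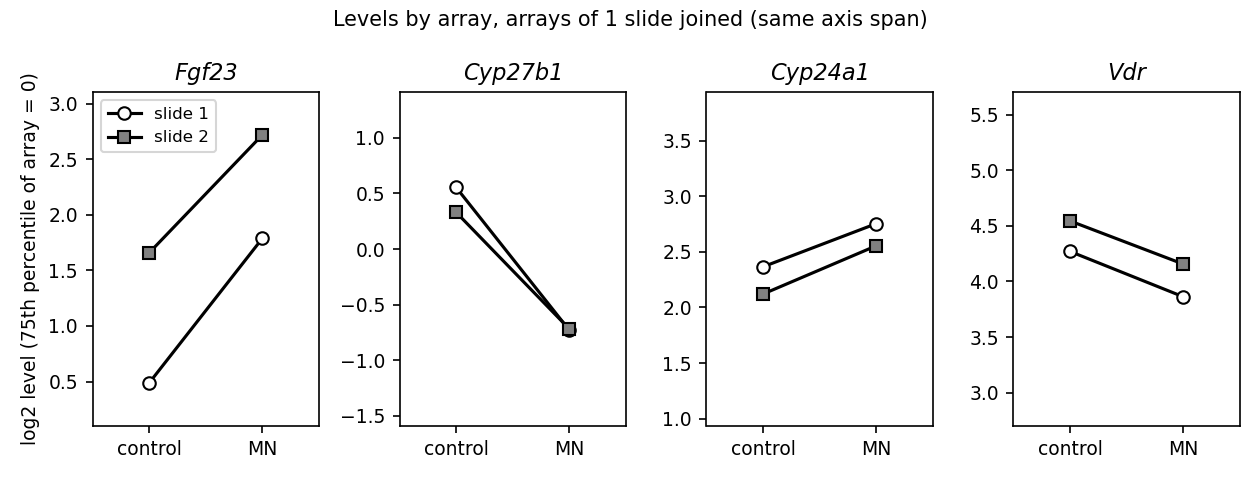
Log2 level (75th percentile of the array at 0) of Fgf23, Cyp27b1, Cyp24a1 and Vdr in control and MN kidneys, 1 point per array, with lines joining the arrays of a slide and the same axis span in each panel. On both slides Fgf23 and Cyp24a1 read higher in MN and Cyp27b1 and Vdr lower; the slides differ most for Fgf23.

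Klotho, the co-receptor that gives FGF23 its action on the kidney, differed little. Kl levels were 5.18 and 5.48 in control and 5.06 and 5.41 in MN (mm9 chromosome 5, 151795712 to 151795771), and the groups overlapped. The difference was -0.10 ± 0.21 (SE, n = 2), with -0.12 on slide 1 and -0.07 on slide 2, and it changed sign when control array 2 (0.05) or MN array 1 (0.08) was left out.

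The main sodium-phosphate cotransporter of the proximal tubule, Slc34a1, did not separate the groups. Its brightest probe read 7.36 and 7.74 in control and 7.31 and 7.74 in MN (mm9 chromosome 13, 55515201 to 55515259), a difference of -0.02 ± 0.24. The other probe (55514826 to 55514885) read 5.88 and 5.89 in control and 5.92 and 5.98 in MN, a difference of 0.07. The 2 probes thus gave opposite signs, both smaller than the standard error, and quantile normalization turned the brightest probe to 0.09.

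Slc34a3, its partner of the same family, gave 5.24 and 5.04 in control and 5.24 and 4.97 in MN (mm9 chromosome 2, 25084438 to 25084497). The groups overlapped and the difference was -0.03 ± 0.18 (0.01 with quantile normalization). Pth1r, the receptor that relays parathyroid hormone to these transporters and to the hydroxylases, was the least variable of the 10 genes, at 6.38 and 6.35 in control and 6.40 and 6.35 in MN (mm9 chromosome 9, 110624846 to 110624905). Its difference was 0.01 ± 0.13, with 0.02 on slide 1 and 0.00 on slide 2.

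Among the calcium genes, the largest difference was that of Calb1, calbindin-D28k, the calcium buffer of the distal convoluted and connecting tubules. Its brightest probe read 3.82 and 3.64 in control and 3.44 and 3.05 in MN (mm9 chromosome 4, 15835078 to 15835137). Its other probe (15833582 to 15833641) read 1.48 and 1.57 in control and 0.96 and 1.08 in MN. Both probes separated the groups, at -0.48 ± 0.20 and -0.50 ± 0.15 (SE, n = 2), or 1.40-fold and 1.42-fold lower in MN. Within slides the brightest probe gave -0.38 and -0.59 and the other -0.52 and -0.49.

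S100g, calbindin-D9k, varied more between slides than between groups. Its brightest probe read 6.98 and 7.93 in control and 6.88 and 7.27 in MN (mm9 chromosome X, 159399938 to 159399997), so that slide 2 stood 0.95 above slide 1 in control and 0.39 above it in MN. The difference was -0.38 ± 0.39 (SE, n = 2), with -0.09 on slide 1 and -0.66 on slide 2, and it was 0.10 without control array 2 and -0.85 without control array 1. The other probe (159399924 to 159399983) gave -0.40, but it covers nearly the same bases and is not a separate measurement of the transcript. Trpv5, the calcium entry channel, read -1.27 and -1.61 in control and -1.41 and -1.68 in MN (mm9 chromosome 6, 41602985 to 41603044), with overlapping groups and a difference of -0.11 ± 0.20.

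**Figure D2:**
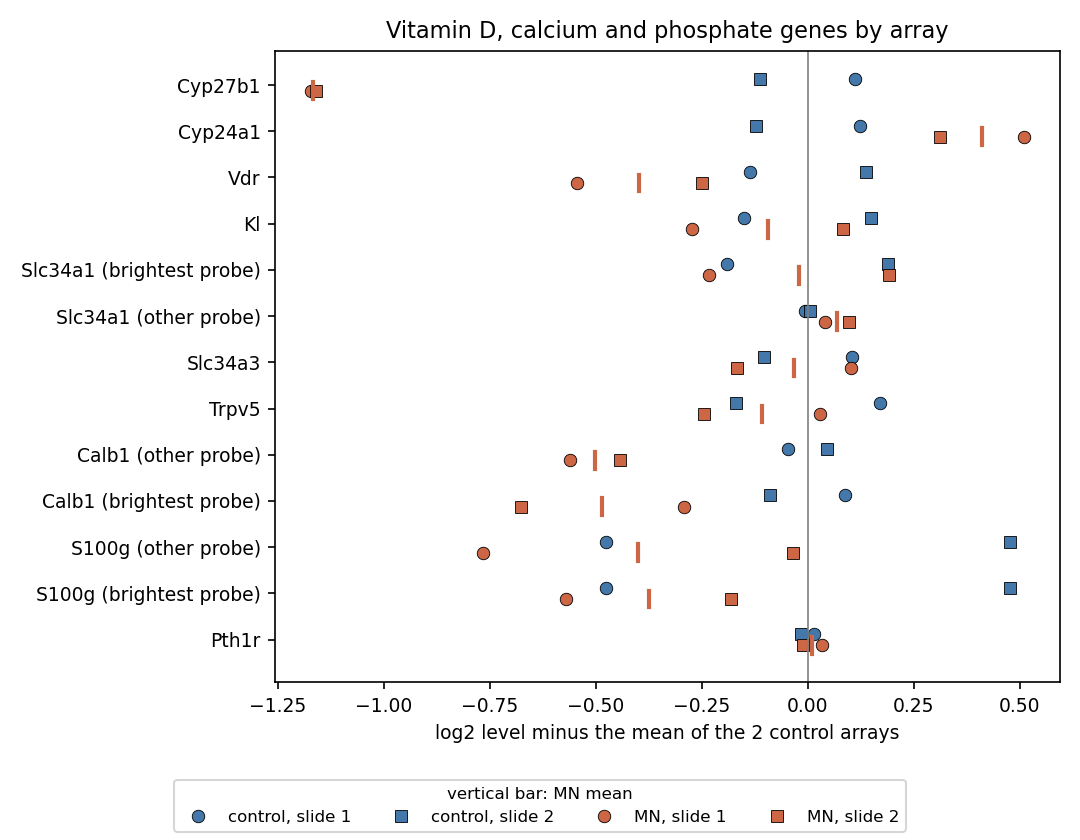
Log2 level of each of the 13 probes of the 10 genes, minus the mean of its 2 control arrays, with circles for slide 1, squares for slide 2, blue for control and orange for MN; vertical bars mark the MN mean. Cyp27b1 stands furthest from its controls at -1.17, both Calb1 probes, Vdr and Cyp24a1 separate the groups, and the S100g control arrays lie 0.95 apart.

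In order of difference the genes ran from Cyp27b1 (-1.17) through Calb1 (-0.48), Vdr (-0.40), S100g (-0.38), Trpv5 (-0.11), Kl (-0.10), Slc34a3 (-0.03) and Slc34a1 (-0.02) to Pth1r (0.01) and Cyp24a1 (0.41). Calb1, Vdr and S100g lay closer to each other than their standard errors, as did the genes from Trpv5 to Pth1r, so the order within these runs has no weight. Of the 10 genes 2 read higher and 8 lower in MN (6 lower with quantile normalization), with a median difference of -0.10 beside -0.05 for all 25296 genes tested. Of all 25296 genes 9740 read higher, so most genes of the array leaned lower, here and in the counts of signs below. Both MN arrays lay above both control arrays for 1 of the 10 (Cyp24a1), a pattern shown by 13.2% of all genes, and below them for 3 (Cyp27b1, Calb1 and Vdr), shown by 19.8%. A difference of 2-fold or more was seen for 1 lower gene (Cyp27b1; 1.54% of all genes) and 0 higher (1.07%). By limma's adjusted p under 0.05, 0 of the 10 were called, where 0.0198% of all genes were called higher and 0% lower. Before adjustment 1 of the 10 (Cyp27b1) had p under 0.05, as did 3.52% of all genes higher and 3.49% lower. With the slide as a block 4 of the 10 did, but so did more of all 25296 genes, 1588 higher and 2291 lower. Because the genes were chosen with this contrast known, nothing is read from these counts.

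**Figure D3:**
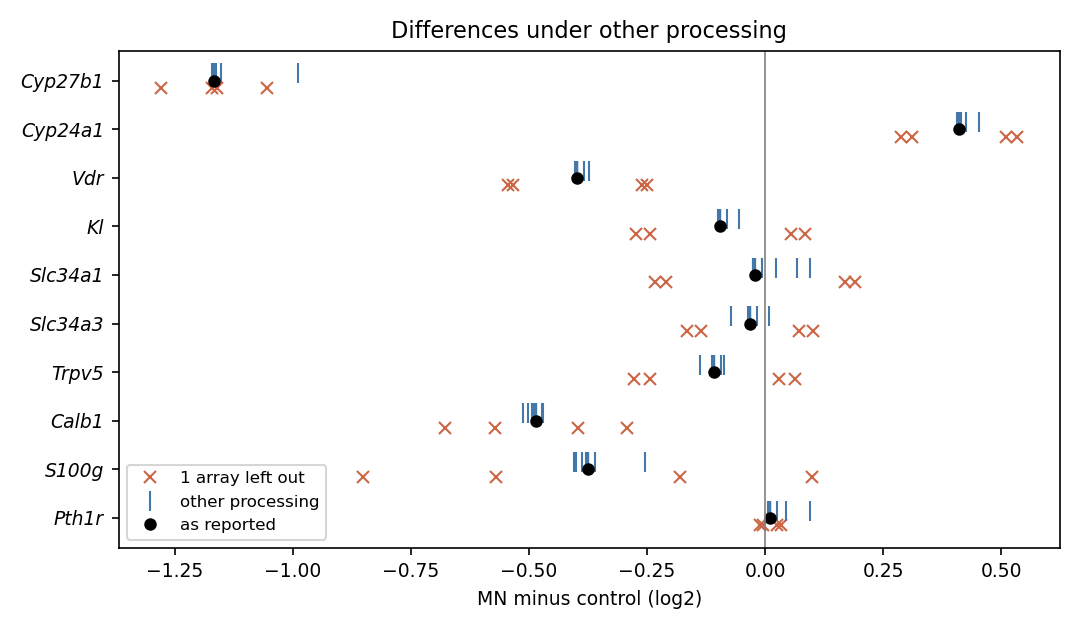
MN minus control difference (log2) of each of the 10 genes as reported (black), under other processing (blue ticks) and with each array left out in turn (orange crosses). Cyp27b1, Calb1 and Vdr stay below 0 and Cyp24a1 above 0 throughout. With groups that do not overlap, as in these genes, leaving out 1 array cannot change the sign. The other 6 genes cross 0 in at least 1 setting, S100g between -0.85 and 0.10.

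Whether the rest of the mineral pathway differed was asked of 94 further genes in 6 lists, of which 87 were measured. By limma with Benjamini-Hochberg adjustment over all genes 0 of the 87 passed the test (smallest adjusted p 0.346); 46 differences were positive and 41 negative, and their median was 0.00. Without adjustment, p was under 0.05 for 2 higher (Sfrp4 and Calca) and 2 lower genes (Klb and Slc34a2), against 3.52% higher and 3.49% lower among all genes. Over the whole array the test called few genes, 5 higher (Adipoq, Cfd, Mup18, Slpi and 1 transcript with no symbol) and 0 lower, and it called 0 with the slide as a block.

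The probe named for Fgf23, the hormone that represses Cyp27b1 and induces Cyp24a1, had the largest difference of the 87. Only 1 probe in whole kidney RNA gave this value. Whether it reads the Fgf23 transcript alone was not tested, and the circulating hormone was not measured. The probe read 0.49 and 1.66 in control and 1.79 and 2.72 in MN, so that the lower MN array stood just above the higher control array. The difference was 1.18 ± 0.54 (SE, n = 2), a mean 2.27-fold higher in MN with both MN arrays above both controls, but it did not pass limma's test (adjusted p 0.830; among the alternatives it lay between 0.170, with the slide as a block, and 1.0). Within slides it was 1.30 and 1.06, and with 1 array left out it ranged from 0.60 without control array 1 to 1.76 without control array 2. The slides differed by about as much as the groups.

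The other genes of FGF23 and klotho signalling did not share a direction. Of 16 measured, 9 read higher and 7 lower, with a median of 0.06. Sfrp4, a secreted Wnt antagonist that promotes phosphate loss, differed by 0.90 ± 0.22 (limma adjusted p 0.524), and by 0.34 with normexp background correction. Klb, the co-receptor of other endocrine FGFs, differed by -0.84 ± 0.29 (adjusted p 0.680), by -0.42 with normexp and by -0.48 without MN array 2. The FGF receptors of this list gave 0.09 ± 0.31 for Fgfr1, -0.05 ± 0.38 for Fgfr2, -0.29 ± 0.19 for Fgfr3 and 0.04 ± 0.13 for Fgfr4. Fgfr3 gave -0.41 at its other probe (adjusted p of the gene by limma 0.961), and the lowest probe of Fgfr1 gave -0.17. At their other probes Fgfr2 gave 0.15, the opposite sign, and Fgfr4 gave 0.04. Egr1, an early response gene of FGF23 signalling, read 0.32 and 0.01 in control and -0.09 and -0.28 in MN, a difference of -0.35 ± 0.18 (adjusted p 0.884) that was -0.19 without control array 1 and -0.50 without control array 2. Dusp6, of the same list, differed by -0.001 ± 0.20. Phex, also of this list, was not well above background on any array.

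The remaining vitamin D genes showed smaller differences than the 2 hydroxylases. Of 17 measured, 8 read higher and 9 lower, and the median was -0.01. Cyp2r1, the main 25-hydroxylase, differed by -0.28 ± 0.62, almost all of it on slide 2 (-0.03 and -0.53). Dhcr7, which diverts the precursor of vitamin D to cholesterol, differed by -0.21 ± 0.20. Lrp2 and Cubn, the megalin and cubilin that retrieve filtered vitamin D with its carrier, differed by 0.07 ± 0.24 and 0.02 ± 0.20. Rxra, the partner of Vdr on DNA, differed by -0.11 ± 0.18 at its brightest probe and by -0.38 at the other.

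Among 11 other phosphate transporters and the proteins that anchor them, 4 read higher and 7 lower, with a median of -0.03. Slc20a2 differed by -0.31 ± 0.15 (limma adjusted p 0.834), Ank, a pyrophosphate transporter, by 0.23 ± 0.20, and Slc17a2 by 0.18 ± 0.14. Slc34a2, the cotransporter of intestine and lung, differed by -0.91 ± 0.24 (adjusted p 0.554) but was clearly above background on a single MN array. With normexp that difference was -0.44.

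Of 16 measured genes of calcium transport and sensing, 10 read higher and 6 lower, with a median of 0.02. Cldn19, a tight junction protein of the thick ascending limb, read 0.45 and 0.62 in control and 0.85 and 1.03 in MN, a difference of 0.40 ± 0.16 (limma adjusted p 0.763). The exchanger Slc8a3 differed by 0.92 ± 0.35 (adjusted p 0.734; 0.54 without MN array 1) at its brightest probe and by -0.68 at the other, so the gene has no settled direction. Slc8a2 differed by -0.32 ± 0.35, with opposite signs on the slides (0.32 and -0.96). Slc8a1 and Atp2b1, which carry calcium out on the blood side of the tubule cells that hold Trpv5 and Calb1, differed by -0.24 ± 0.14 and -0.12 ± 0.17, the channel Trpv6 by 0.14 ± 0.14, and the calcium-sensing receptor Casr by 0.03 ± 0.22.

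In parathyroid hormone and calcitonin signalling 9 of 15 measured genes read higher and 6 lower, with a median of 0.02. Calca, which encodes calcitonin and CGRP, had the smallest p of the 87 genes. It read -1.88 and -2.02 in control and -0.98 and -1.02 in MN, a difference of 0.95 ± 0.14 with 0.96 at its second probe, and did not pass (limma adjusted p 0.346). The receptors Calcrl and Calcr differed by -0.42 ± 0.18 and -0.28 ± 0.17. Of 12 magnesium genes 6 read higher and 6 lower; Egfr differed by 0.35 ± 0.22 (-0.04 at 1 of its other probes, 0.17 without control array 2, 0.18 without MN array 1 and 0.54 without control array 1) and the channel Trpm6 by 0.26 ± 0.14, neither past the test.

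**Figure D4:**
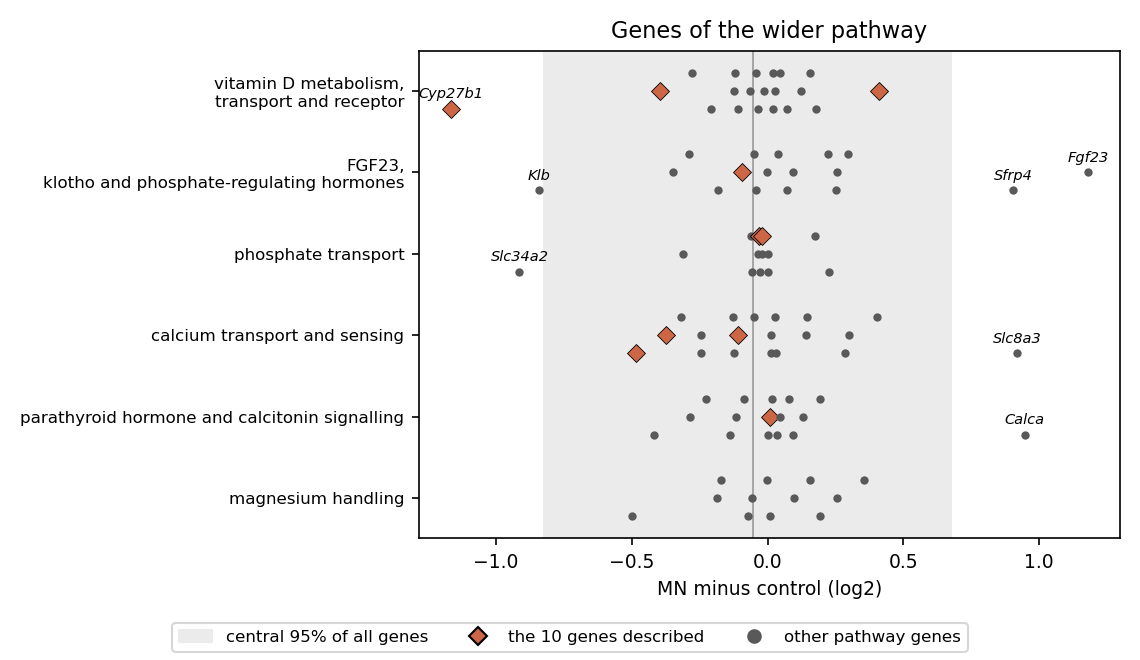
MN minus control difference (log2) of the measured genes of 6 lists, 1 point per gene, with the 10 genes described as orange diamonds, the median of all genes as a line and their central 95% (-0.82 to 0.68) shaded. Most points lie inside the shaded band; Cyp27b1, Klb and Slc34a2 lie below it and Fgf23, Sfrp4, Slc8a3 and Calca above it.

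In whole kidney, fewer cells of a type and less RNA per cell cannot be told apart. The distal convoluted and connecting tubule markers other than the genes described here gave 2 higher and 7 lower of 9, with a median of -0.05, Slc12a3 at -0.04 and Pvalb at -0.15. Their summed level, on a linear scale with the array's 75th percentile at 1, was 364 and 489 in control and 344 and 417 in MN. Sums of this kind, here and below, compare arrays and are weighted to the brightest probes of a list. Most of the distal sum was Klk1, at log2 levels of 7.87 and 8.55 in control and 7.81 and 8.25 in MN. The part of this segment in the difference of Calb1 was not tested. The proximal tubule markers, of the segment where Cyp27b1 is known to act, gave 7 higher and 8 lower of 15 with a median of -0.03 (0.08 with quantile normalization) and sums of 1087 and 1532 in control and 1107 and 1424 in MN.

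Markers of other tissues and cells differed between the groups to varying degrees. Of 7 measured adipocyte markers 5 read higher in MN, with a median of 2.59 and Adipoq and Cfd called higher (limma adjusted p 0.0458 for the smaller). The summed level of the 7 was 17.8 to 20.1 in control and 22.3 to 22.6 in MN. Most of that sum was Fabp4, which differed by -0.10 ± 0.15, so it does not show the size of the other differences. Cfd differed by 6.92 ± 0.22, with 1 control array well above background. Both control arrays had Adipoq below the level called well above background, and its difference was at least 4.52. All 5 measured blood and plasma cell markers read higher, with a median of 0.78 and sums of 132 to 155 in control and 183 to 208 in MN. Of 5 measured adrenal cortex markers 4 read lower, with a median of -0.37 and sums of 1.11 to 1.19 in control and 0.789 to 0.948 in MN; Cyp11b2 was not well above background on any array. The 3 measured parathyroid and thyroid markers (Gcm2, Tg and Chga) read lower with a median of -0.22 and sums of 0.305 to 0.379 in control and 0.248 to 0.324 in MN, and Pth was not well above background on any array. The part of any of these in the differences of the 10 genes was not tested.

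The genes whose 4 levels ran most like those of Cyp27b1, of 15115 compared by the greatest gap on any array after each gene was centred on its own mean, were Cited1 (gap 0.095, difference -1.22), Plxdc1 (0.115, -0.98), Arntl (0.123, -1.14), Esm1 (0.141, -1.12) and Apol10b (0.145, -0.97). With 4 arrays in 2 groups, any gene lower in MN by about as much with little spread comes out near. Arntl encodes the clock activator BMAL1. Of 14 core clock genes 10 read higher and 4 lower in MN, with a median of 0.15 and sums of 152 to 167 in control and 175 to 180 in MN. By limma 0 passed the test, and before adjustment 3 higher and 2 lower had p under 0.05. The median and sums do not show larger differences of single genes in both directions. Cry1 (1.44 ± 0.32), Per2 (1.15 ± 0.16) and Ciart (1.09 ± 0.20) read higher. Npas2 (-1.38 ± 0.69), Arntl and Nr1d1 (-0.59 ± 0.20) read lower. Cry1 was well above background on only 1 control array and Npas2 on only 1 MN array. The sources used here do not give the time of day at which kidneys were taken, and its part in these differences was not tested.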

How the data were processed

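Processed signal intensity was deposited per spot and array; per the file headers it comes from Feature Extraction 10.5.1.1 (Agilent), with background subtraction, detrending and surrogates for spots too dim to measure (6.91% to 20.0%), and with no scaling between arrays. The deposited value table holds log2 values, scaled like those used here and centred on the control mean; the sources used here do not say how the authors made it. Its columns for replicates 1 and 2 match each other's scanner file in control and in MN, so it served only as an alternative.

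Control and non-uniform spots were left out, spots of a probe averaged, and log2 values taken relative to the 75th percentile of the array. Genes needed a probe well above background on both arrays of a group, and the probe with the highest mean represented a gene. Names followed a RefSeq table (GRCm38.p6) through accession (28026 probes), symbol (3418) or synonym (295), otherwise the file (23942); probe positions are those of the files (mm9). Differences and standard errors came from limma 3.58.1 in R 4.3.3 (lmFit, eBayes, two-sided, Benjamini-Hochberg over 25296 genes, adjusted p under 0.05). The fit was checked on simulated data with independent arrays and no slide effect, so the check does not cover the slide. Figures used Python 3.11.15 and matplotlib 3.10.9. Arrays of a slide deviated together from their group means (correlation 0.63 over genes), the slide being read from the file headers. The number of arrays, 2 a group, limits the precision.

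Named were all 10 genes, the 3 genes with the largest differences in each pathway list among those well above background on all arrays, and the 5 nearest in pattern to Cyp27b1; a few genes that the rule names are not reported here. Further genes (Slc34a2, Egr1, Dusp6, Fgfr1, Fgfr2, Fgfr3, Fgfr4, Lrp2, Cubn, Rxra, Slc8a1, Atp2b1, Trpv6, Casr, Klk1, Fabp4, Cyp11b1, Hsd3b1, the core clock genes named singly, the 5 called genes) were added after their values were seen. The 10 genes and the lists were chosen with earlier results of these data known. Alternatives covered background correction, scaling, filter, probe choice, names, variance trend, slide block, threshold and each array left out.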

Additional observations from a re-analysis of the deposited data

How the results depend on the processing

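The count of genes past limma's threshold, 5 as reported, was 15 with normexp background correction, 20 with quantile normalization, 11 with the median of detected probes as the reference, 16 with an intensity trend, 22 at an adjusted p under 0.1, 1 with probes well above background on all 4 arrays, 0 without the filter, and 0 to 0 with each array left out. With the slide, which is also the replicate number, as a replicate block it was 0 (smallest adjusted p 0.0583; before adjustment p was under 0.05 for 1588 higher and 2291 lower). Of the 87 other pathway genes, 0 passed in any of the 16 alternatives; with the replicate block 6 higher and 6 lower had p under 0.05 before adjustment (smallest adjusted p 0.170). Differences do not change under the block, only their errors: that of Cyp27b1 went from 0.15 to 0.12 and that of Cyp24a1 from 0.17 to 0.096. Larger falls were those of S100g (0.39 to 0.18), Slc34a1 (0.24 to 0.096) and Fgf23 (0.54 to 0.12), whereas that of Slc8a2 rose (0.35 to 0.37). The errors printed after ± are those without the block.

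Cyp27b1 was -0.99 with normexp and ranged from -1.28 to -1.05 with 1 array left out. Pth1r was 0.045 with normexp and 0.094 with quantile normalization, and -0.01 to 0.03 with 1 array left out. The ranges with 1 array left out were 0.29 to 0.53 for Cyp24a1, -0.54 to -0.25 for Vdr, -0.27 to 0.08 for Kl, -0.23 to 0.19 for Slc34a1, -0.17 to 0.10 for Slc34a3, -0.28 to 0.06 for Trpv5, -0.68 to -0.29 for Calb1, -0.85 to 0.10 for S100g and -0.25 to -0.07 for the median of the 10 genes. The causes were not tested. The median spot signal was 3.26 to 5.40 times its local background. With normexp, the differences of the dim genes Slc34a2, Sfrp4 and Klb were less than those reported, at -0.44, 0.34 and -0.42.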
